A study of Mus musculus with 17 samples.

Results

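Wild-type mouse lung at day 14 was compared with wild-type lung at day 0, using the 6 libraries whose titles hold WT_14_Days and the 4 whose titles hold WT_Control, 10 of the 17 libraries of the series. The series profiles RNA of lungs from wild-type mice and from mice lacking Clic4, a chloride intracellular channel protein, and asks what Clic4 in the host does when mammary tumours spread. All 10 libraries were labelled wild type for Clic4 and with the strain FVB/6DT1, with an age of 6 weeks at day 0 and 8 weeks at day 14. FVB is an inbred mouse strain, and 6DT1 names a line of mammary tumour cells. The design text of the series counts 5 wild-type mice at day 0 and 2 at day 14, which differs from the sample labels, and the labels were followed. No treatment between the days is given in the sample labels, and day and age changed together, so that their effects cannot be told apart. Which animal gave which library is not stated, so p-values measure only the spread between these libraries, which may be technical.

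The lung is a reservoir of neutrophils, short-lived phagocytes that are made in the bone marrow under the cytokine G-CSF and leave it in response to chemokines that bind the receptor CXCR2. Their granules hold antimicrobial proteins such as cathelicidin, and their cytosol holds the S100A8/S100A9 complex. In mammary tumour models neutrophils and related myeloid cells gather in the lung before and during metastasis. Interferons act on nearly every cell of the lung and turn on antiviral genes through STAT transcription factors, while fibroblasts build the collagen and elastic fibres of the alveolar wall.

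The libraries held 25981250 to 35743830 counts over genes, and every library had Xist counts and none of Ddx3y. Lung markers were abundant in all 10: genes of alveolar type 2 cells summed to 22325 to 28713 CPM (counts per gene scaled to a common library size) and genes of alveolar type 1 cells to 9153 to 9951 CPM. Heart and pulmonary vein muscle genes summed to 1546 to 2697 CPM, so some cardiac-type muscle was present in each library. The leading principal component (19.8% of the variance) placed day 14 libraries 5 and 6 farthest from the day 0 libraries. Clic4 itself had 943 ± 12.1 CPM (SD, n = 4) at day 0 and 1045 ± 156 CPM (n = 6) at day 14, a log2 fold change of 0.15 (SE 0.0927; edgeR adjusted p = 0.591).

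On average, neutrophil genes stood higher and B cell genes lower at day 14, with list scores that overlapped between the days. A few genes near absent from day 0 lung were also higher, but no single gene passed the edgeR test. Of 18397 genes tested, edgeR's quasi-likelihood test called 0 (0%) at a Benjamini-Hochberg adjusted p under 0.05, and the smallest adjusted p was 0.102. At an unadjusted p under 0.05 there were 1064 genes higher at day 14 (5.78%) and 915 lower (4.97%). With libraries scaled by their totals alone this split was 801 higher and 1137 lower, and with upper quartile factors 863 and 1072, so the balance of the directions depended on the scaling. Every day 14 library lay above every day 0 library for 233 genes (1.27%), and below for 256 (1.39%). DESeq2, on the same libraries, called 124 genes higher (0.747%) and 118 lower (0.711%), and limma-voom called 2 genes, Dynap and Gzmg. Dynap and Gzmg had 0 counts at day 0 and passed the filter on low counts only through day 14 libraries, so these calls add no support. Without day 14 library 5, edgeR called 80 genes higher (0.433%) and 74 lower (0.401%). Of the 242 DESeq2 calls, 91 (37.6%) were also among these 154 (59.1%), all in the same direction. The count was 1 (Il1b) without day 14 library 4, 3 (Prl2c3, Rhox5, Ifitm1) without library 6, and 0 without any other single library. In what follows, "called" names a gene with an adjusted p under 0.05 in the test stated, and other values are given as levels. Counts of list members are to be read beside the shares over all genes given here.

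**Figure D1:**
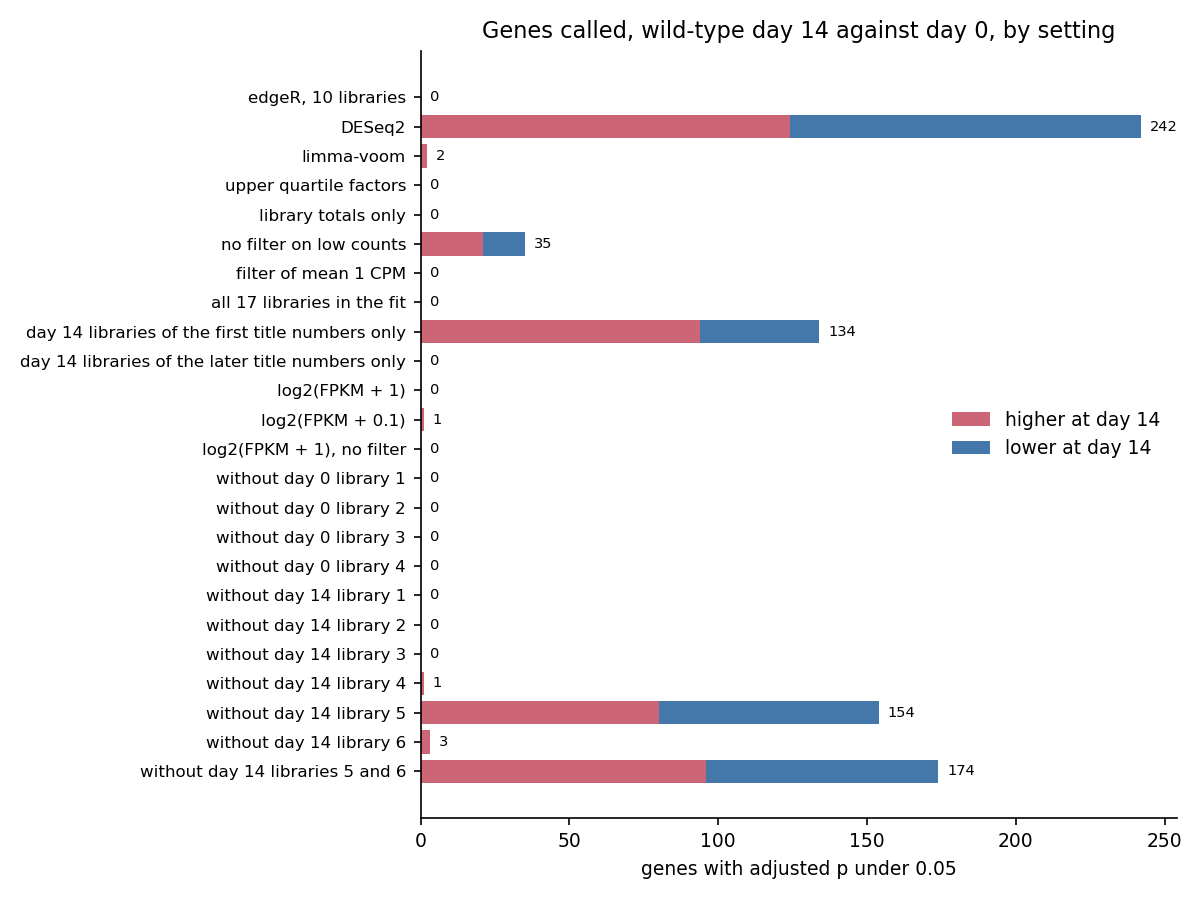
Number of genes with an adjusted p under 0.05 between day 14 and day 0 in wild-type lung (horizontal axis), for the edgeR test on all 10 libraries and for each alternative (vertical axis), split into genes higher (red) and lower (blue) at day 14. The bars run from 0 for the edgeR test to 242 for DESeq2, and leaving out day 14 library 5 gives 154.

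Genes of neutrophil granules had the highest median of the 41 lists, and their levels differed widely between the day 14 libraries. The list's mean log2 deviation was -0.51 in day 14 library 4, inside the day 0 range of -0.91 to -0.38. The list held 22 genes, including S100a8 and S100a9 of the cytosol, and 16 had enough counts to be tested. Of these, 15 had positive values and 9 had an unadjusted p under 0.05, all higher at day 14, beside 5.78% of all genes. edgeR called 0 and DESeq2 called 5 higher (S100a8, S100a9, Ngp, Camp and Stfa2l1), beside 0.747% of all genes. Camp, Stfa2l1 and Ly6g passed the filter on low counts only through the day 14 libraries, so their p-values add no support. The counts and medians of this list include such members and were not recomputed without them. The median log2 fold change was 1.26, beside 0.00391 over all genes tested; it was 0.53 with day 14 libraries 1 and 2 alone, 0.70 on log2(FPKM + 1), and 0.79 to 1.39 with any 1 library left out. In bulk tissue, fewer cells of a type and less RNA per cell cannot be told apart, and the same holds for more. The list was written with earlier results of these data known, so its direction is not independent evidence.

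S100a9 (chr3:90692632-90695721, minus strand, GRCm38) encodes a calcium-binding protein that makes up much of the neutrophil cytosol together with S100A8. It had 25.2, 19.3, 30.6 and 47.5 CPM in day 0 libraries 1 to 4, and 56.0, 75.5, 171, 48.4, 139.7 and 237 CPM in day 14 libraries 1 to 6. The groups did not overlap, though day 14 library 4 lay within 1 CPM of the highest day 0 library. The log2 fold change was 1.99 (SE 0.549; edgeR adjusted p = 0.276, DESeq2 adjusted p = 0.0141). Its partner S100a8 ran from 10.8 to 23.4 CPM at day 0 and from 23.6 to 127 CPM at day 14, with a log2 fold change of 2.05 (SE 0.562; edgeR adjusted p = 0.271). In both genes day 14 libraries 3 and 6 were highest and library 4 was lowest.

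Ngp (chr9:110419747-110423012, plus strand), neutrophilic granule protein, is made by developing neutrophils in the marrow. Its levels were 1.304, 1.28, 0.645 and 0.678 CPM at day 0 and 4.94, 10.6, 12.5, 1.03, 2.88 and 4.05 CPM at day 14. Day 14 library 4 lay among the day 0 libraries and the other 5 lay above them. The log2 fold change was 2.60 (SE 0.712; edgeR adjusted p = 0.262, DESeq2 adjusted p = 0.00981). Camp, the cathelicidin precursor, had 0.595, 0.518, 0.305 and 0.214 CPM at day 0 and 1.87, 3.55, 3.32, 0.527, 1.54 and 0.816 CPM at day 14 (log2 2.21, SE 0.583; edgeR adjusted p = 0.215). For Ngp and Camp, library 2 and library 3 of day 14 were highest, whereas for S100a9 it was library 6.

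The stretch before the start of Ngp is shown because it holds a match to TTGCNNAA, a short pattern like the site bound by C/EBP factors, which drive granule genes in developing neutrophils. It comes from RefSeq, build GRCm38.p6, reads 5′ to 3′ along the gene's strand, and has the match in capitals, where N is any base and both strands were searched.
Ngp (chr9:110419658-110419746, plus strand): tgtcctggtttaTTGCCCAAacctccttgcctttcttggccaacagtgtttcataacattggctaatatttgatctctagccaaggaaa
Of the 19 granule genes with a RefSeq window of 300 bases around the start, 8 (42.1%) held this motif, against 10.8% of all 32544 windows and 2 of 15 receptor genes (13.3%).

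Other granule genes did not move as one. The gelatinase Mmp9 averaged 8.62 ± 1.19 CPM (SD, n = 4) at day 0 and 17.1 ± 7.29 CPM (n = 6) at day 14 (log2 0.99, SE 0.317; edgeR adjusted p = 0.328), and the collagenase Mmp8 averaged 2.09 ± 0.694 and 6.01 ± 4.002 CPM with no overlap between the groups. Ly6g, the surface protein by which mouse neutrophils are sorted, had 13 counts over the 4 day 0 libraries and 116 over the 6 day 14 libraries, a ratio of pooled CPM of 5.95 (95% exact interval 3.35 to 11.5, counting error only). Without day 14 library 6 it had 69 counts at day 14, and the ratio was 4.2 (2.3 to 8.28). Ly6g passed the filter on low counts only through the day 14 libraries, so its difference adds no support. Lcn2 and Ltf, granule proteins that airway epithelium also makes, had log2 values of -0.33 and 0.65 with overlapping groups. Genes of the earliest granules were at the limit of counting: Elane had at most 2 counts in any library, Ctsg at most 4 and Mpo at most 10. These 3, with Fcnb, Stfa2 and BC100530, were too low to be tested.

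**Figure D2:**
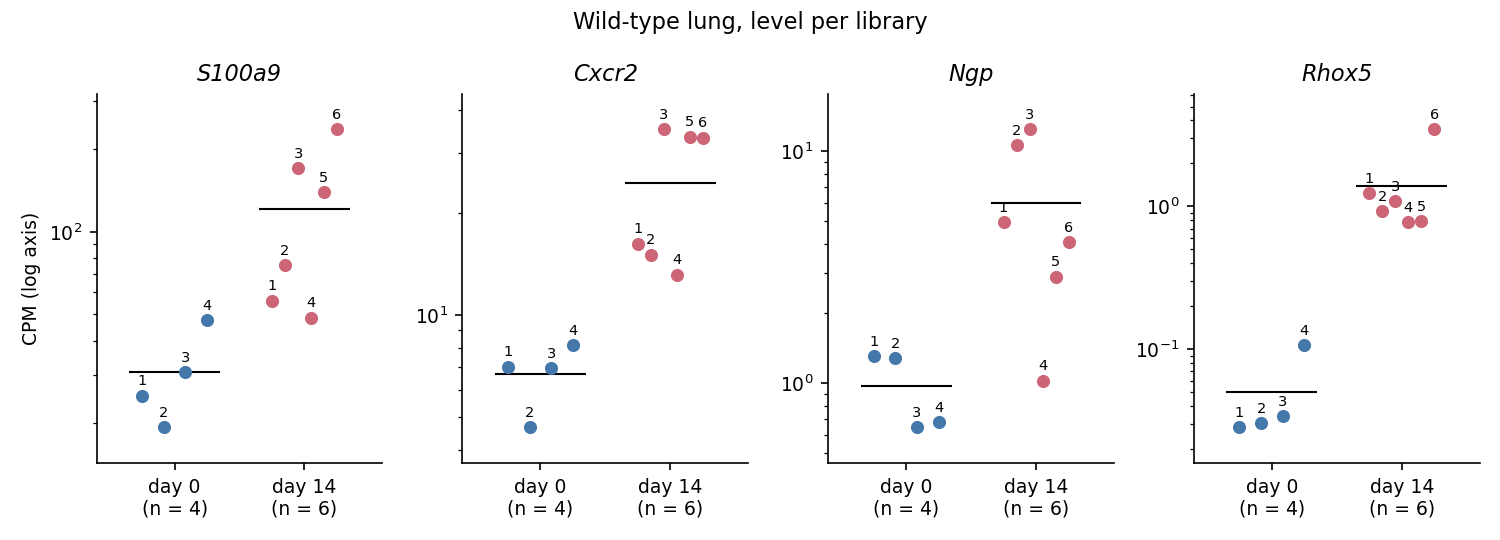
Levels of S100a9, Cxcr2, Ngp and Rhox5 in each wild-type library in CPM (vertical log axis) at day 0 (blue, n = 4) and day 14 (red, n = 6); numbers are library numbers and lines are group means. The groups do not overlap for S100a9, Cxcr2 and Rhox5, while day 14 library 4 lies among the day 0 libraries for Ngp.

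Neutrophil surface receptors stood higher at day 14 on average, with a smaller shift and a smaller spread between libraries than the granule genes. The list's mean log2 deviation was -0.21 in day 14 library 4, inside the day 0 range of -0.69 to -0.17. Of 18 receptor genes, all tested, 16 had positive values. An unadjusted p under 0.05 was met by 9, all higher at day 14, beside 5.78% of all genes. The groups of 5 did not overlap (Clec4d, Mrgpra2b, Cxcr2, Csf3r and Ccr1), beside 1.27% of all genes. The median log2 fold change was 0.47. DESeq2 called 7 of the 18 higher (the same 5 with Trem3 and Clec4e), beside 0.747% of all genes. Without day 14 library 5, edgeR called Clec4d and Mrgpra2b.

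Cxcr2 (chr1:74153989-74161246, plus strand), the receptor for CXCL1, CXCL2 and related chemokines, had 7.03, 4.66, 6.96 and 8.14 CPM at day 0 and 16.2, 15.1, 35.2, 13.1, 33.5 and 33.3 CPM at day 14. All 6 day 14 libraries lay above the day 0 range, in a lower trio (libraries 1, 2 and 4) and a higher trio (3, 5 and 6). The log2 fold change was 1.87 (SE 0.373; edgeR adjusted p = 0.169, DESeq2 adjusted p = 0.000222). Csf3r, the G-CSF receptor, showed the same trios, with 23.7 to 32.7 CPM at day 0, 41.7 to 48.5 CPM in day 14 libraries 1, 2 and 4, and 93.4 to 102 CPM in libraries 3, 5 and 6 (log2 1.35, SE 0.322; edgeR adjusted p = 0.204).

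Clec4d, a C-type lectin that binds fungal and mycobacterial glycolipids, had 3.06, 1.64, 2.65 and 3.14 CPM at day 0 and 5.30, 5.57, 9.13, 4.44, 7.26 and 7.14 CPM at day 14. Its log2 fold change was 1.302 (SE 0.228) with an edgeR adjusted p of 0.102, a minimum it shared with other genes, and of 0.0431 without day 14 library 5. Mrgpra2b, a G-protein-coupled receptor of neutrophils, went from 0.694 ± 0.28 to 2.80 ± 1.19 CPM (log2 2.02, SE 0.357; edgeR adjusted p = 0.102). The neighbouring copy Mrgpra2a, at 0.309 ± 0.11 and 1.71 ± 0.733 CPM, is near identical, so reads could be split between the 2 genes and each value is uncertain. Mrgpra2a also passed the filter on low counts only through the day 14 libraries. The integrin chain Itgam, the pattern receptor Tlr2 and the chemokine receptor Cxcr4, named after their values were seen, had log2 fold changes of 0.23, 0.16 and -0.05 with overlapping groups.

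The chemokines and growth factors that recruit neutrophils went both ways. Of 13 tested, 2 were higher and 3 lower at an unadjusted p under 0.05, with a median log2 fold change of -0.02 and 0 called by edgeR. Il1b, a cytokine of activated myeloid cells, had 9.67 to 11.4 CPM in the 4 day 0 libraries and 18.1, 22.4, 31.0, 13.3, 26.9 and 26.5 CPM at day 14. Its groups did not overlap (log2 1.12, SE 0.212; edgeR adjusted p = 0.132), and edgeR called it without day 14 library 4 (log2 1.24, adjusted p = 0.0269). Cxcl12, a stromal chemokine that retains neutrophils in the marrow through CXCR4, averaged 365 ± 26.1 CPM at day 0 and 295 ± 30.5 CPM at day 14 (log2 -0.31, SE 0.0754; edgeR adjusted p = 0.192, DESeq2 adjusted p = 0.0275). Cxcl15, an epithelial chemokine, averaged 971 ± 119 and 708 ± 155 CPM (log2 -0.46, SE 0.17; edgeR adjusted p = 0.393). Of 18 factors tied to the metastatic niche, 2 were higher and 3 lower at an unadjusted p under 0.05, with a median of -0.05. The counts of both lists stand beside 5.78% higher and 4.97% lower over all genes. The monocyte chemokine Ccl2 averaged 0.884 ± 0.437 and 2.02 ± 0.792 CPM (log2 1.17, SE 0.373; edgeR adjusted p = 0.298), and Ptgs2, the inducible prostaglandin synthase, 39.9 ± 6.65 and 26.0 ± 9.02 CPM (log2 -0.62, SE 0.257; edgeR adjusted p = 0.445).

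A small group of genes was close to absent at day 0 and present in every day 14 library. Rhox5 (chrX:37804842-37808876, plus strand), a homeobox gene of the reproductive tract that is also expressed in many tumour lines, had 6 counts over the 4 day 0 libraries and 256 over the 6 day 14 libraries. Its levels were 0.0284, 0.0304, 0.0339 and 0.107 CPM at day 0 and 1.23, 0.928, 1.09, 0.776, 0.789 and 3.47 CPM at day 14. Library 6 stood above the other day 14 libraries, and the groups were far apart. The ratio of pooled CPM was 28.5 (95% exact interval 12.9 to 78.3, counting error only), the edgeR log2 fold change 4.73 (SE 0.682; adjusted p = 0.102) and the DESeq2 adjusted p 1.54e-06. Without day 14 library 6 the ratio was 20.3 (9.11 to 56.2).

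Dynap, which encodes a dynactin-associated membrane protein, had 0 counts at day 0 and 79 at day 14, at least 17.6-fold higher by pooled CPM, with the day 0 group set to 3 counts in all. Without day 14 library 6 the bound for Dynap was 14.2-fold. Its day 14 libraries held 0.391, 0.232, 0.470, 0.333, 0.237 and 0.850 CPM. Prl2c3, a prolactin-family gene of placenta and proliferating cells, had 2 counts at day 0 and 608 at day 14, a ratio of 203 (55.9 to 1680). Without day 14 library 6 it had 266 counts at day 14, and the ratio was 105 (28.8 to 873). It measured 1.96, 1.89, 1.97, 1.19, 1.34 and 11.6 CPM at day 14, and its close copy Prl2c2 had 0 and 22 counts. The 2 copies can share reads, so their split is uncertain. In Rhox5, Dynap and Prl2c3 alike, day 14 library 6 was highest.

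The same list of 17 candidate tumour-cell genes also held markers that did not separate the days. Rhox5, Dynap and Prl2c3 passed the filter on low counts only through the day 14 libraries, so their p-values add no support. Of the other 10 genes tested, Myc was higher at an unadjusted p under 0.05 and 0 were lower. The epithelial genes Epcam, Krt8 and Krt18 had log2 values of -0.00, -0.04 and 0.04, and the milk protein genes Csn2 and Wap had 0 counts in all 10 libraries. Myc had 8.28 to 10.4 CPM in day 14 libraries 1 to 5 and 15.8 CPM in library 6. Gzmg, a cytotoxic granzyme picked out after its values were seen, had 0 counts at day 0 and 98 at day 14. That was at least 21.8-fold higher by the same bound, and at least 16.3-fold without day 14 library 6. Gzmg too passed the filter only through the day 14 libraries. Granzyme genes of this cluster resemble each other, so its counts are uncertain. The source of these transcripts was not tested.

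Interferon-stimulated genes stood higher at day 14 on average, and 1 library carried most of the difference. All 25 genes of the type I interferon list had positive values, with a median log2 fold change of 0.62, but 0 had an unadjusted p under 0.05 and all had overlapping groups. Among the day 14 libraries, library 5 was the highest for all 25. Without it the median was -0.25, so the direction turned, and with day 14 libraries 1 and 2 alone it was -0.82. The list's mean log2 deviation was 2.30 in day 14 library 5 and between -1.02 and 0.27 in the other 5, against 0.91 in day 0 library 4 and -0.68 to -0.35 in the other 3 day 0 libraries. The split therefore ran within both days.

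Promoter stretches of 3 of these genes are given, chosen because they hold the kind of site by which interferons act. They come from RefSeq promoter windows of build GRCm38.p6, end at the annotated start of the gene and read 5′ to 3′ along the gene's strand. Capitals mark matches on either strand to GAAANNGAAA, the core of the interferon-stimulated response element, where N is any base. Overlapping matches were allowed and run together in Isg15.
Ifit3 (chr19:34583379-34583528, plus strand): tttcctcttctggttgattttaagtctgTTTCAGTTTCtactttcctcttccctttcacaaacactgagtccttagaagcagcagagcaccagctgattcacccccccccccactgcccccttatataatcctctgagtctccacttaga
Isg15 (chr4:156200819-156200968, minus strand): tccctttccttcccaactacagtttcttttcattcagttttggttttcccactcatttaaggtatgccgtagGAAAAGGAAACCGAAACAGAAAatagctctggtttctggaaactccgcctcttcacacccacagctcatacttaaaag
Oas3 (chr5:120777662-120777809, minus strand): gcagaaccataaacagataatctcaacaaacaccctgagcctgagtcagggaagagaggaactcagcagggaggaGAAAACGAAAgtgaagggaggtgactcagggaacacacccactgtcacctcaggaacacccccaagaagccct

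Of the 17 type I interferon genes with a RefSeq window of 300 bases, 10 (58.8%) held the motif, against 3.45% of all 32544 windows. The interferon gamma list held it in 11 of 14 windows (78.6%). Oasl1, a type I gene that was also highest in day 14 library 5, held 0 matches in its window. A match describes the letters only and does not show that a factor binds there.

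Ifit3, an antiviral RNA-binding protein, had 66.9, 71.2, 71.5 and 177 CPM at day 0 and 74.1, 74.8, 141, 97.6, 619.9 and 131 CPM at day 14 (log2 0.97, SE 0.731; edgeR adjusted p = 0.667). Isg15, a ubiquitin-like protein, had 9.41, 13.3, 10.99 and 38.6 CPM at day 0 and 6.35, 9.45, 21.8, 16.4, 162 and 18.8 CPM at day 14 (log2 1.11, SE 1.03; edgeR adjusted p = 0.735). Oas3, a sensor of double-stranded RNA, had 4.96, 4.35, 4.48 and 20.3 CPM at day 0 and 3.85, 5.405, 23.03, 4.24, 68.0 and 17.7 CPM at day 14 (log2 1.25, SE 0.995; edgeR adjusted p = 0.685). In each of the 3 genes day 0 library 4 was the highest of its group and day 14 library 5 the highest of all.

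Genes that respond to interferon gamma included a few that stood higher outside library 5. Of 19 tested, all had positive values. An unadjusted p under 0.05 was met by 5, all higher at day 14, beside 5.78% of all genes. The median log2 fold change was 0.51, falling to 0.13 without day 14 library 5. Cxcl9, a chemokine for activated T cells, had 0.737, 0.548, 0.543 and 2.00 CPM at day 0 and 3.73, 4.14, 2.996, 1.303, 0.947 and 5.10 CPM at day 14. Library 5, highest for the type I genes, was the lowest day 14 library for Cxcl9 (log2 1.68, SE 0.56; edgeR adjusted p = 0.339, DESeq2 adjusted p = 0.0356). The transcription factor Irf1 averaged 124 ± 8.91 and 149 ± 15.1 CPM (log2 0.26, SE 0.0747; edgeR adjusted p = 0.225), with day 14 library 3 below day 0 library 4. Ifng itself had at most 9 counts in any library and was not tested.

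**Figure D3:**
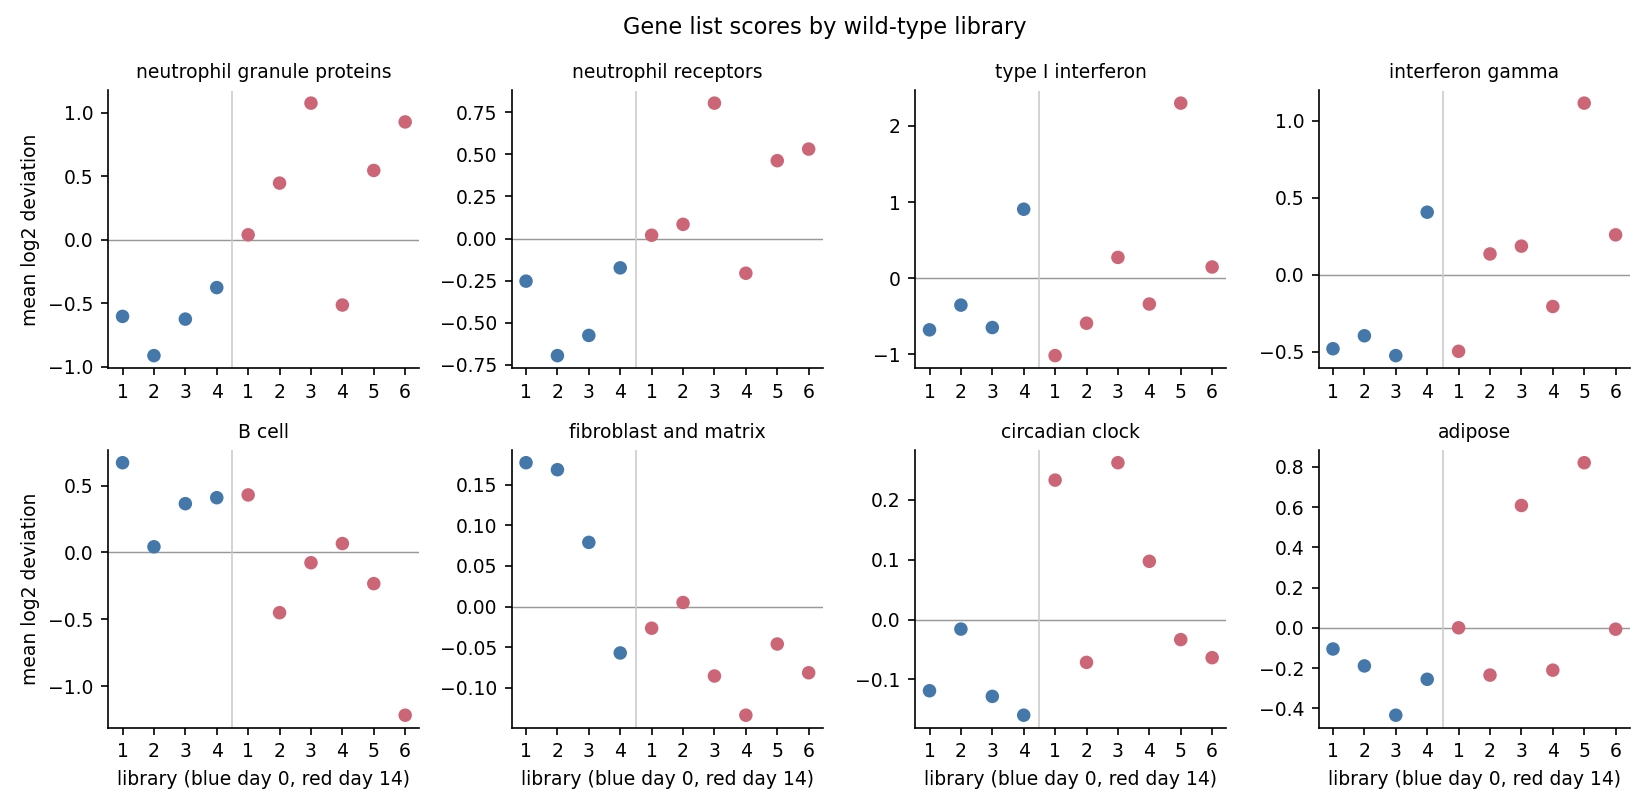
Mean log2 deviation of 8 gene lists in each wild-type library (vertical axis, log2 units from the mean over the 10 libraries; horizontal axis, library number, blue day 0, red day 14). Type I interferon genes peak at 2.30 in day 14 library 5, B cell genes reach -1.22 in day 14 library 6, and the neutrophil lists are lowest among day 14 libraries in library 4.

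B cell genes stood lower at day 14 on average. All 15 had negative values, but every gene's groups overlapped. An unadjusted p under 0.05 was met by 4 (Cxcr5, Spib, Blk and Ighd), beside 4.97% lower over all genes. edgeR called 0, and the median log2 fold change was -0.59. The list's mean log2 deviation was 0.43, 0.07 and -1.22 in day 14 libraries 1, 4 and 6, against 0.04 to 0.67 at day 0. Ighd, the IgD heavy chain of naive B cells, had 54.3, 40.4, 47.2 and 42.3 CPM at day 0 and 43.1, 20.9, 30.5, 31.1, 30.1 and 13.6 CPM at day 14 (log2 -0.71, SE 0.271; edgeR adjusted p = 0.413). Only day 14 library 1 reached the day 0 range, and library 6 was lowest. Cxcr5, the receptor that guides B cells to follicles, averaged 6.48 ± 1.40 and 4.22 ± 1.04 CPM (log2 -0.62, SE 0.196; edgeR adjusted p = 0.295). Plasma cell genes did not follow: 7 of 12 had positive values and the median was 0.10.

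T cell genes had a median of -0.14 with 19 of 20 negative, and NK and cytotoxic genes a median of -0.32 with 12 of 13 negative. In neither list did a gene reach an unadjusted p under 0.05. Cell cycle genes had a median of -0.31 with 23 of 25 negative. Of the 25, 1 (Tyms) was lower at an unadjusted p under 0.05, near the 4.97% over all genes. Among the day 14 libraries, library 2 was highest for all 25 cell cycle genes and for all 11 erythroid genes tested, and day 0 libraries 1 and 2 had higher scores (0.72 and 0.55) than day 0 libraries 3 and 4 (-0.55 and -0.27). With day 14 libraries 1 and 2 alone the cell cycle median was 0.05. Siglech, a surface lectin of plasmacytoid dendritic cells, averaged 11.2 ± 1.13 and 6.25 ± 2.98 CPM (log2 -0.85, SE 0.312; edgeR adjusted p = 0.388). Complement C1q genes of macrophages stood a little higher, C1qa at 34.2 ± 4.25 and 41.4 ± 5.93 CPM (log2 0.27, SE 0.116; edgeR adjusted p = 0.437). The alveolar macrophage scavenger receptor Marco had 6.17 to 16.3 CPM at day 0 and 3.55 to 9.68 CPM at day 14 (log2 -1.06, SE 0.334; edgeR adjusted p = 0.318).

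Genes of the fibroblast and matrix list had small differences, mostly negative, and the day 0 libraries differed among themselves. Of 28 fibroblast and matrix genes, 22 had negative values, 14 were lower and 0 higher at an unadjusted p under 0.05, and the median log2 fold change was -0.17. Over all genes 4.97% were lower at that threshold. The list's summed level was 11838, 12118 and 11113 CPM in day 0 libraries 1 to 3, but 9870 CPM in day 0 library 4, below the 10020 to 10707 CPM of the 6 day 14 libraries. edgeR called 0 of them, DESeq2 called Loxl1 and Col6a1 lower, and edgeR without day 14 library 5 called Loxl1. Loxl1, an enzyme that crosslinks elastin, had 123, 110.3, 108 and 92.0 CPM at day 0 and 79.0, 79.9, 74.7, 75.3, 87.2 and 64.4 CPM at day 14. Its groups did not overlap (log2 -0.50, SE 0.0859; edgeR adjusted p = 0.102, DESeq2 adjusted p = 0.000232).

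The 3 listed genes of collagen VI, the beaded-filament collagen, lay close together: Col6a1 at -0.25 (SE 0.061), Col6a2 at -0.27 (SE 0.0745) and Col6a3 at -0.25 (SE 0.0704) in log2 fold change. Col6a1 had 476, 487, 426 and 389 CPM at day 0 and 360.2 to 394 CPM at day 14, so that day 14 library 2 just reached the lowest day 0 library. The fibrillar collagens Col1a1 and Col3a1 had values of -0.37 (SE 0.116) and -0.42 (SE 0.157), the microfibril gene Fbn1 -0.31 (SE 0.0837) and elastin, Eln, -0.28 (SE 0.11). Col3a1 also spread within day 0, with 1207 and 1164 CPM in libraries 1 and 2 and 906 and 786 CPM in libraries 3 and 4, and day 14 ran from 619 to 1007 CPM. Proteoglycan and fibroblast identity genes stood near 0: Dcn at -0.02, Postn at -0.04 and Pdgfra at 0.02. The crosslinking enzyme Lox, a relative of Loxl1, had a value of 0.25 (SE 0.237).

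**Figure D4:**
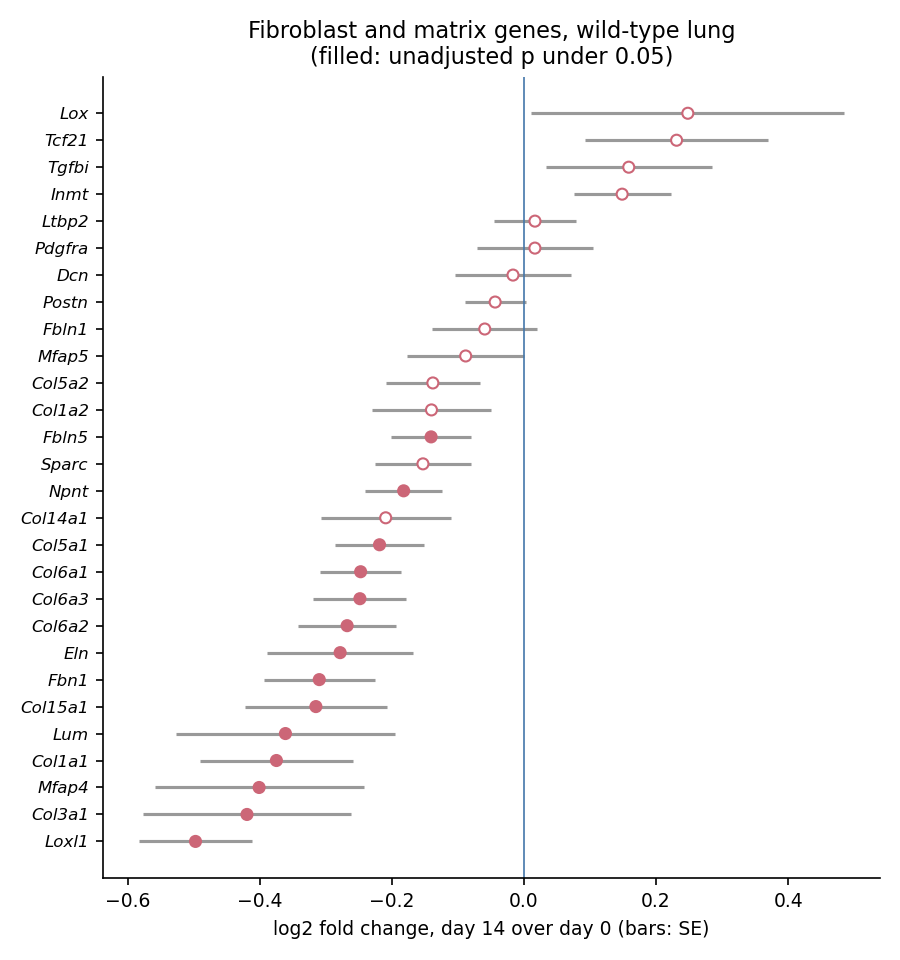
Log2 fold change of the 28 fibroblast and matrix genes between day 14 and day 0 in wild-type lung (horizontal axis; bars are standard errors; filled points have an unadjusted edgeR p under 0.05). The 14 filled points all lie below 0, from Loxl1 at -0.50 to Fbln5 at -0.14.

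Lists of vessel and alveolar cells had medians close to 0, with some members lower. Of 22 vascular endothelial genes, 5 were lower and 0 higher at an unadjusted p under 0.05, beside 4.97% lower over all genes, and the median was -0.03. Ednrb, the endothelin receptor of lung capillary cells, had 107, 122, 112 and 115 CPM at day 0 and 82.3 to 101 CPM at day 14 with no overlap (log2 -0.30, SE 0.0593; edgeR adjusted p = 0.116, DESeq2 adjusted p = 0.00228, and 0.0488 by edgeR without day 14 library 5). The adhesion protein gene Cdh5, also without overlap, had a value of -0.16 (SE 0.0553) and the VEGF receptor Kdr -0.17 (SE 0.054). Of 15 alveolar type 1 genes, 3 were lower (the basement membrane collagens Col4a3 and Col4a4 and the surface protein Pdpn) and 1 higher (Rtkn2) at an unadjusted p under 0.05, with a median of -0.03. The shares over all genes were 4.97% lower and 5.78% higher, and the 1 higher is near its share. Col4a4 averaged 259 ± 4.52 and 230.1 ± 19.4 CPM (log2 -0.17, SE 0.0586; edgeR adjusted p = 0.328, and 0.046 without day 14 library 5). Alveolar type 2 genes had a median of -0.04 with 1 of 16 at an unadjusted p under 0.05 (Cxcl15, lower), and ciliated cell genes a median of -0.02 with 1 of 16 (Dnah11, lower). Both counts are near the 4.97% lower over all genes.

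The airway secretory list had 9 of 15 genes positive, a median of 0.05, and 3 genes lower and 0 higher at an unadjusted p under 0.05. Over all genes 4.97% were lower. Muc5ac, a gel-forming mucin and the member of smallest p, had 2.18, 3.41, 2.78 and 2.14 CPM at day 0 and 1.81, 0.895, 1.29, 1.14, 1.70 and 1.33 CPM at day 14, with no overlap (log2 -0.95, SE 0.212; edgeR adjusted p = 0.152, DESeq2 adjusted p = 0.00799). Muc5b averaged 92.7 ± 11 and 59.4 ± 18.8 CPM (log2 -0.64, SE 0.22; edgeR adjusted p = 0.366). Clca1, a secreted protein of goblet cells, had 14.0, 67.7, 25.1 and 8.35 CPM at day 0 and 1.72, 8.89, 1.47, 3.49, 0.592 and 2.58 CPM at day 14. Only day 14 library 2 passed the lowest day 0 library (log2 -3.20, SE 0.779; edgeR adjusted p = 0.215, DESeq2 adjusted p = 0.00981). Agr2, a disulfide isomerase needed for mucin folding, had 2.07 to 4.48 CPM at day 0 and 0.986 to 1.53 CPM at day 14 (log2 -1.24, SE 0.226; edgeR adjusted p = 0.102). Clca1 was on the chloride channel list, and Agr2 was among the genes of smallest p, so these 4 genes do not form a list of their own.

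Clock genes leaned higher at day 14, though the groups overlapped for every member. Of 17, 6 were higher and 0 lower at an unadjusted p under 0.05, with a median of 0.24, beside 5.78% higher over all genes. DESeq2 and edgeR without day 14 library 5 each called Cry1. Cry1, a repressor of the clock, had 16.0, 21.7, 16.5 and 17.3 CPM at day 0 and 27.0, 31.5, 25.6, 26.0, 18.9 and 30.1 CPM at day 14 (log2 0.57, SE 0.134; edgeR adjusted p = 0.186). Library 5 alone among the day 14 libraries lay inside the day 0 range. Per2 averaged 123 ± 14.5 and 163 ± 28.2 CPM (log2 0.41, SE 0.125; edgeR adjusted p = 0.295), while Dbp spread from 92.8 to 281 CPM within day 14 and from 132 to 152 CPM within day 0. The hour of tissue collection is not in the labels.

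Adipose genes were high in day 14 libraries 3 and 5, and heart muscle genes in library 5. Of 11 adipose genes, 4 were higher at an unadjusted p under 0.05, beside 5.78% of all genes, 0 lower, and the median was 0.52. Adipoq, the adipocyte hormone adiponectin, had 6.01, 6.00, 3.70 and 6.00 CPM at day 0 and 6.89, 7.13, 13.5, 6.10, 15.9 and 7.45 CPM at day 14 (log2 0.80, SE 0.308; edgeR adjusted p = 0.403). The groups did not overlap, by a margin under 0.1 CPM, and libraries 3 and 5 of day 14 were the high ones. All 16 heart and pulmonary vein muscle genes had positive values (median 0.21), and day 14 library 5 was highest for 15 of them among the day 14 libraries, with Myh6 at 1267 CPM there and 706 to 932 CPM in the other 5. The part of adjacent fat and heart tissue in other differences was not tested.

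Among acute phase genes, 3 of 17 were higher and 1 lower at an unadjusted p under 0.05, with a median of 0.13. Over all genes 5.78% were higher and 4.97% lower, so the 1 lower is near that share. Steap4, a metalloreductase induced by inflammatory cytokines, had 12.04 to 14.6 CPM at day 0 and 15.5 to 24.0 CPM at day 14, with no overlap (log2 0.55, SE 0.107; edgeR adjusted p = 0.116, DESeq2 adjusted p = 0.0012). Timp1, an inhibitor of metalloproteinases, had 4.14 to 4.72 CPM at day 0 and 5.54 to 10.1 CPM at day 14 (log2 0.71, SE 0.175; edgeR adjusted p = 0.192, DESeq2 adjusted p = 0.0152). Genes of cholesterol and fatty acid synthesis had 1 of 25 higher and 5 lower, with a median of -0.11, among them the sterol enzymes Msmo1 (-0.39, SE 0.11) and Cyp51 (-0.43, SE 0.162). The 1 higher is near the 5.78% over all genes, and the 5 lower stand beside 4.97% over all genes.

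The genes with the smallest p that were expressed at 1 CPM or more and did not overlap between the days were mostly outside these lists. Arhgap42, a GTPase-activating protein of smooth muscle, had 48.8 to 50.5 CPM at day 0 and 58.1 to 62.9 CPM at day 14 (log2 0.28, SE 0.0437; edgeR adjusted p = 0.102). Serpinb2, an inhibitor of plasminogen activators made by macrophages, had 0.136 to 0.457 and 0.638 to 1.32 CPM (log2 2.02, SE 0.336). Serpinb2 passed the filter on low counts only through the day 14 libraries, so its p-values add no support. Ifitm1, an antiviral membrane protein, had 24.3 to 28.8 CPM at day 0 and 38.1 to 42.6 CPM in day 14 libraries 1 to 5, with 61.1 CPM in library 6 (log2 0.74, SE 0.125). Prr5l, Trip10 and Pkp4 had log2 values of 0.37, 0.34 and 0.29.

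Lower at day 14 in the same way were Glp1r, the receptor of the hormone GLP-1, with 35.1 to 47.1 CPM at day 0 and 27.7 to 31.3 CPM at day 14 (log2 -0.46, SE 0.074; edgeR adjusted p = 0.102), and the zinc finger gene Zfp462, with 31.2 to 34.1 and 19.2 to 27.5 CPM (log2 -0.54, SE 0.0912). Chsy3, a chondroitin synthase (-0.84, SE 0.152), the metalloproteinase Adamts17 (-0.76, SE 0.144) and Colgalt2, which adds sugars to collagen (-0.34, SE 0.0652), belong to matrix synthesis or turnover. Ankrd44, Pspc1 and Myo6 had values of -0.30, -0.53 and -0.32. DESeq2 called each of these lower genes. With all 10 libraries, edgeR called none of them among the 18397 genes tested, but called each with no filter on low counts (edgeR adjusted p = 0.0077 for Glp1r).

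The day effect in wild-type lung was set against that in the 7 knockout libraries (2 at day 0 and 5 at day 14) by the interaction in 1 edgeR fit over 17 libraries. It called 0 of 19557 genes (0%), with 890 at an unadjusted p under 0.05 and a smallest adjusted p of 0.0566; DESeq2 called 9, and edgeR called 1 without wild-type day 14 library 2, wild-type day 14 library 3 or knockout day 14 library 4. For S100a9 the log2 fold change was 1.98 in knockout lung, and the difference, knockout minus wild type, was 0.00 (SE 1.01); for Cxcr2 it was -0.13 (SE 0.826). Rhox5 had a knockout value of 0.20 and a difference of -4.52 (SE 1.47; edgeR adjusted p = 0.988), whereas Prl2c3 had 7.18 and a difference of -0.19 (SE 1.18). For Cxcr5 the knockout value was 0.47 and the difference 1.08 (SE 0.514; edgeR adjusted p = 0.988). With 2 knockout libraries at day 0 these differences are poorly fixed, and none is shown to be 0.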

How the data were processed

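RNA of whole lung was measured by sequencing. Per the labels' protocols, Qiagen RNeasy was used for the RNA, and Illumina TruSeq v4 for the libraries. The authors deposited expected counts per gene for each library, not normalized, and 1 joint table of FPKM made by the authors, per the file headers and values; RSEM 1.3.0, STAR 2.5.3 and, limma 3.38.3 are listed beside build mm10, per the submitters' processing notes. The annotation release is not given in the sources used here. Libraries were grouped by the labelled genotype and day.

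Expected counts were rounded. Genes were kept by filterByExpr (18397 of 54146), libraries scaled by TMM (factors 0.976 to 1.02), and edgeR 4.0.16 fitted to the 10 wild-type libraries (robust quasi-likelihood, two-sided, Benjamini-Hochberg adjustment over all genes tested). SE is the size of the log2 fold change divided by the root of edgeR's F. The members and lists (41) were chosen with earlier results of these data known, so lists carry no test. Named were S100a9, Cxcr2, Ngp, Rhox5 and Clic4; the 10 genes of smallest p in each direction whose groups did not overlap and whose higher mean reached 1 CPM, since none was called; and up to 4 members of smallest p per list. Other members, such as those that show what did not move, were named after their values were seen. DESeq2 1.42.0, limma-voom (limma 3.58.1), log2(FPKM + 1) and log2(FPKM + 0.1), other filters and scalings, and leaving out each library were tried. The code was tested on simulated data. List scores are means over members of log2 CPM (prior count 2) minus the mean over the 10 libraries. The chi-square per gene between libraries of a group was 12.43 to 38.99, so none was a copy. Gene IDs were matched to GENCODE M21 (54079 of 54146 without version), on the assembly that mm10 names.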

Additional observations from a re-analysis of the deposited data

Results flagged for a closer look

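Within each day's group, the highest or lowest library was compared with the rest for 186 groups of values, and 21 held a library far from the others by Dixon's criterion at the 95% level, which chance alone meets in about 1 group in 20.

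Day 14 library 6 stood high for Rhox5 (3.47 CPM, the others 0.776 to 1.23), Prl2c3 (11.6 CPM, the others 1.19 to 1.97), Ifitm1 (61.1 CPM, the others 38.1 to 42.6) and Myc (15.8 CPM, the others 8.28 to 10.4). Day 14 library 5 stood high for the interferon-stimulated genes Ifit3 (619.9 CPM), Oas3 (68.0 CPM; 67.95 before rounding), Oasl1 (42.6 CPM; 42.55 before rounding) and Oas2 (120.1 CPM). Within day 0, library 4 stood high for Ifit3 (176.5 CPM), Oas3 (20.3 CPM), Oas2 (55.6 CPM), Irf1 (137.7 CPM), Cxcl9 (2.00 CPM; 1.999 before rounding), Rhox5 (0.107 CPM, the others 0.0284 to 0.0339) and the interferon gamma score (0.41), and low for the glycolytic enzyme gene Pfkl (58.7 CPM, the others 67.6 to 68.5).

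The rest were single values. Prl2c3 had 0.0567 CPM in day 0 library 1 and 0 in the other 3. Adipoq was low in day 0 library 3 (3.70 CPM, the others near 6.00). Car4, a carbonic anhydrase of capillary cells, was low in day 14 library 3 (174.5 CPM, the others 190.9 to 196.8), and Col6a2 was high in day 14 library 2 (333.5 CPM, the others 291 to 302.5). The acute phase score was low in day 14 library 4 (-0.34).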

How the results depend on the processing

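The edgeR count of 0 genes higher and 0 lower became 124 and 118 with DESeq2, 21 and 14 with no filter on low counts, 94 and 40 with only the day 14 libraries of the first title numbers (1 and 2), and 96 and 78 without day 14 libraries 5 and 6 (chosen after seeing the data). It became 2 higher with limma-voom and 1 (Rhox5) with log2(FPKM + 0.1). Leaving out 1 library at a time gave 0 to 80 genes higher and 0 to 74 lower. Genes higher at an unadjusted p under 0.05 numbered 676 with log2(FPKM + 1) and 685 with log2(FPKM + 0.1), and 1524 were lower with log2(FPKM + 1) and no filter. The neutrophil granule median was 0.53 with the first title numbers and 0.70 with log2(FPKM + 1), filtered or not. With the first title numbers the type I interferon median was -0.82, the interferon gamma median -0.13, and 4 genes reversed: Ifit3, WT day 14 versus day 0, to -0.375, Oas3, WT day 14 versus day 0, to -0.877, Oasl1, WT day 14 versus day 0, to -1.07 and Oas2, WT day 14 versus day 0, to -0.342. With 1 library left out Oasl1 ran from -0.245 (without day 14 library 5) to 1.62; without libraries 5 and 6 it was -0.3 and Oas2 was -0.0283. The median log2 fold change of the list: alveolar type 1 was -0.0635 without libraries 5 and 6. The exact permutation p of Ngp, a gene chosen with earlier results known so that it supports nothing, was 0.0286 with all libraries and between 0.0159 and 0.0714 with 1 library left out. The interaction count of 0 was 9 with DESeq2 and 0 to 1 with 1 library left out. The causes were not tested. Of the other values, 1646 for single genes kept their direction and side, and 127 for single genes passed the threshold in the same direction. The 1068 counts, medians and permutation p-values held as unmoved stayed within a set tolerance or side, and the sign of a median was not checked. Among them, the type I interferon median was -0.25 without day 14 library 5. The cell cycle median was 0.05 with the first title numbers. No paired analysis was possible because the labels give the groups no shared replicate numbers. Depth limits Elane, Mpo, Ctsg, Ifng and other genes under the filter.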
